A study of Mus musculus with 10 samples.

Results

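The core circadian clock genes measured here were 10 genes listed for their textbook role: Arntl, Clock, Per1, Per2, Per3, Cry1, Cry2, Nr1d1, Nr1d2 and Dbp. They were taken by gene symbol from the 54838 annotated genes, and all 10 passed the filter on low counts, as 14719 genes did in all. The list rests on function and no measured value was a criterion, but it was chosen with earlier results of these data known. The question was whether crypts of the 2 genotypes looked as if they had been collected at different phases of the clock.

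Jejunal crypts of 10 mice, 5 per genotype (WT and Arid3a cKO), gave 1 RNA-seq library each, and the mice were killed 1 month after the first of 3 daily tamoxifen injections. The cKO mice were VillinCre-ERT2+/-; Arid3a fl/fl, so that tamoxifen activates Cre in intestinal epithelial cells and deletes Arid3a, a gene for a DNA-binding transcription factor, in those cells and their progeny. WT animals received tamoxifen as well, and whether they carried Cre or the floxed alleles is not given in the sources used here. Crypts were released from tissue freed of villi by scraping and were not sorted, so immune and stromal cells and the lower villus may contribute RNA. All WT animal identifiers begin with BRGU and all cKO identifiers with VLDC, so anything these prefixes stand for, which the labels do not say, cannot be told apart from genotype. The hour of collection, the light schedule and the feeding schedule are not given in the sources used here.

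Libraries held 27050455 to 28152743 counts in WT and 28314069 to 31053622 in cKO. Arid3a, a low-abundance transcript here, was at 2.42 ± 0.40 CPM (normalized read count scaled to a common library size, with TMM factors; mean ± SD, n = 5) in WT, whereas cKO crypts had 0.67 ± 0.35 CPM, with no overlap between the genotypes. The 4 epithelial markers (Epcam, Krt8, Vil1 and Cdh1) summed to 4278 to 4846 CPM in WT and to 5041 to 5691 CPM in cKO, without overlap. Stem cell markers summed to 4527 to 7479 CPM in WT and to 3529 to 5380 CPM in cKO. Differences are log2 fold changes of cKO against WT from edgeR's quasi-likelihood test, adjusted by Benjamini-Hochberg over all 14719 genes, with 0.05 as the threshold. The median log2 fold change of all genes tested was -0.03.

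The mammalian clock is a transcriptional feedback loop that runs in nearly every cell, the intestinal epithelium included. BMAL1 (encoded by Arntl) and CLOCK bind E-boxes and activate Per, Cry, Nr1d1, Nr1d2 and Dbp; PER and CRY proteins then accumulate and repress BMAL1 and CLOCK, while the nuclear receptors REV-ERB alpha and beta (Nr1d1 and Nr1d2) repress Arntl through RORE elements. DBP carries the rhythm to output genes through D-boxes. In mouse organs the transcripts peak in a fixed order over the day, from Arntl, Clock and Npas2 around dawn to Cry1 and Nfil3 in the night. Between them come Nr1d1 in the day, Dbp, Nr1d2, Per3, Tef and Hlf late in the day, and Per1 and Per2 around dusk. Arntl is thus nearly opposite in phase to the genes of late day and dusk.

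Promoter windows from RefSeq (GRCm38.p6, 250 bases before to 50 bases after a start site) were found for 9 of the 10 genes, Per2 being the one without. Both strands were searched for the E-box CACGTG, the E-prime box CACGTT, which reads as AACGTG in sequences of the opposite orientation, the D-box TTATGTAA or TTACGTAA, and the RORE core TAGGTCA. None of these is part of another. Of all 32851 windows of this length, 7.15% held CACGTG, 4.68% the E-prime box, 0.938% TTATGTAA, 0.119% TTACGTAA and 2.61% the RORE core. Clock elements of 5 genes are shown in 30 bases each, 5′ to 3′ on the strand of the gene, to let the loop be read from its sequences, with the element in capitals and the position of the element's first base given from the start site. The window of Cry1 also held an E-prime box at -79, which is not shown. Only sequence was matched, which does not show that a factor binds there. The start sites can differ from the gene limits given below, as for Per1, whose site at chr11:69098949 lies inside the gene. The first bases after the start sites of Cry2 and Nr1d1 were not found in an annotated transcript.
Per1 E-box, -166, chr11:69098771-69098800, plus strand: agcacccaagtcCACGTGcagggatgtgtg
Cry1 E-box, -60, chr10:85185097-85185126, minus strand: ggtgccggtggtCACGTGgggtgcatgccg
Cry2 E-prime box, -166, chr2:92434218-92434247, minus strand: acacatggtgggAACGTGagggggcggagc
Per3 D-box, -205, chr4:151044852-151044881, minus strand: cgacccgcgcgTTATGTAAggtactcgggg
Per3 D-box, -158, chr4:151044805-151044834, minus strand: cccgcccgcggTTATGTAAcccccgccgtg
Arntl RORE core, 31, chr7:113207529-113207558, plus strand: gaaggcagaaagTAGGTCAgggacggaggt

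The 250 bases before the RefSeq start sites of Dbp, Nr1d1 and Nr1d2 are shown because these 3 genes passed the test between the genotypes. That of Dbp, chr7:45705247, lies inside the gene limits given below, so part of its window does too. That of Nr1d1, chr11:98775377, lies upstream of the gene limits. Nr1d1 held an E-prime box, in capitals, whereas the windows of Dbp and Nr1d2, like those of Clock, held none of the letters searched, which says nothing of elements outside the window or spelled otherwise.
Dbp, chr7:45704997-45705246, plus strand: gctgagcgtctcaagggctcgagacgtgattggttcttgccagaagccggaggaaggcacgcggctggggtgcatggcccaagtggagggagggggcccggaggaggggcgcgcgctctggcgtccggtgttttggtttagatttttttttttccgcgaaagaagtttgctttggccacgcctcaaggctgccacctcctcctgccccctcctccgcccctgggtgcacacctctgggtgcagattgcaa
Nr1d1, chr11:98775378-98775627, minus strand: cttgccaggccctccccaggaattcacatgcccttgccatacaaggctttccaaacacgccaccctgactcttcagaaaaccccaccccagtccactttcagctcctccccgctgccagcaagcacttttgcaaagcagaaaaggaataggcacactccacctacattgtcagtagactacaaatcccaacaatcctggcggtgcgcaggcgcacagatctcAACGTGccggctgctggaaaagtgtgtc
Nr1d2, chr14:18239107-18239356, minus strand: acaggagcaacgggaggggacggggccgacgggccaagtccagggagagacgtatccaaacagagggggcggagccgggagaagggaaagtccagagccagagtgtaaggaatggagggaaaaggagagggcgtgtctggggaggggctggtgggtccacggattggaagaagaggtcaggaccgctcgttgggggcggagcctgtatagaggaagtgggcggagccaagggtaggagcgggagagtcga

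Of the 10 clock genes, 3 were higher in cKO crypts, namely Dbp, Nr1d1 and Nr1d2, and none was lower past the threshold. The 3 of 10 that passed stand beside 28.3% of all genes tested that passed in either direction, a similar share. Past the threshold and higher were 15.6% of all genes, and 12.7% were lower. The same 3 genes were those whose WT and cKO animals did not overlap in CPM, as was the case for 19.6% of all genes tested. The median log2 fold change of the 10 genes was 0.17, and 8 of the 10 estimates were positive, Arntl among them at 0.001, beside 6755 of the 14719 genes tested. With library size alone Arntl and Per3 turned negative.

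**Figure D1:**
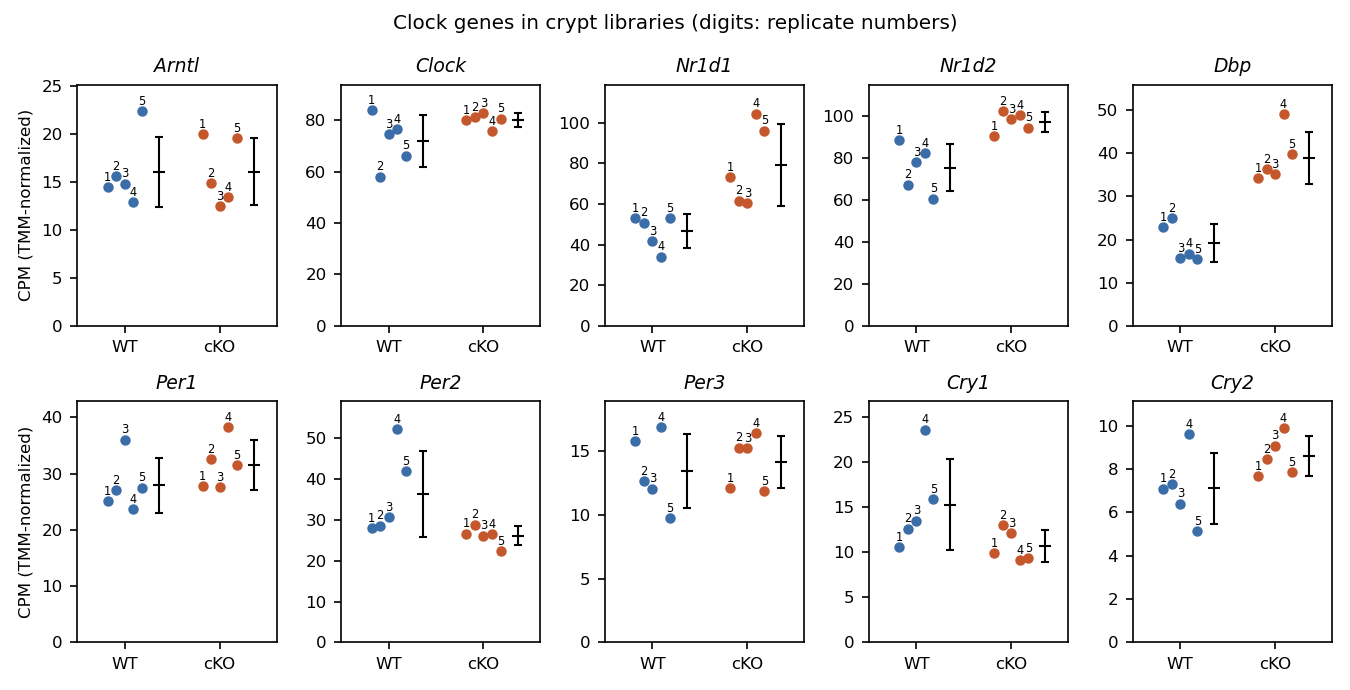
Level of each clock gene in every library (vertical axes, TMM-normalized CPM, starting at 0; points, animals with their replicate number; bars, mean ± SD of 5 animals; blue WT, orange cKO). Dbp, Nr1d1 and Nr1d2 do not overlap between genotypes, Arntl has the same mean in both, and Per2 and Cry1 are highest in WT animal 4.

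The largest difference was that of Dbp (ENSMUSG00000059824, chr7:45705088-45710203, plus strand), the clock-controlled activator that carries the rhythm to D-box genes. In WT animals 1 to 5 Dbp was at 22.9, 24.9, 15.6, 16.7 and 15.5 CPM, and in cKO animals 1 to 5 at 34.2, 36.3, 35.1, 49.1 and 39.7 CPM. The lowest cKO animal thus stood above the highest WT animal. Dbp rose 2.03-fold (log2 fold change 1.02, SE 0.15, 95% interval 0.69 to 1.36, adjusted p = 0.00135). The estimate lay between 0.86 and 1.14 over 20 alternative analyses and passed the threshold in each. Dbp overlaps Sphk2 on the opposite strand over 737 bases, and the strand setting of the counting is not given in the sources used here, so reads there may be shared; Sphk2 itself differed by 0.22 on the log2 scale (adjusted p = 0.0673).

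Nr1d1 (ENSMUSG00000020889, chr11:98767932-98775333, minus strand) encodes REV-ERB alpha, the heme-binding repressor of Arntl. WT animals 1 to 5 had 52.8, 50.8, 41.6, 34.1 and 53.0 CPM, and cKO animals 1 to 5 had 73.2, 61.6, 60.3, 104 and 96.1 CPM. Every cKO animal was above every WT animal, and cKO animals 4 and 5 were well above the other cKO animals. Nr1d1 rose 1.70-fold (log2 fold change 0.77, SE 0.18, 95% interval 0.38 to 1.16, adjusted p = 0.0100). cKO animals 4 and 5 share an identifier stem, and without both of them the log2 fold change was 0.49 and the adjusted p 0.0557. The end of Nr1d1 overlaps Thra on the opposite strand over 1075 bases, and the difference of Thra was 0.22 on the log2 scale (adjusted p = 0.0987).

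Nr1d2 (ENSMUSG00000021775, chr14:18204054-18239127, minus strand), whose product REV-ERB beta shares this repressor role, differed less. WT animals had 88.5, 67.4, 78.3, 82.4 and 60.7 CPM in order of their replicate numbers, against 90.4, 103, 98.7, 101 and 94.6 CPM in cKO animals. The groups did not overlap, but WT animal 1 came within 2 CPM of cKO animal 1. Nr1d2 rose 1.29-fold (log2 fold change 0.37, SE 0.10, 95% interval 0.16 to 0.57, adjusted p = 0.0140). The call was lost when library size alone was used (0.23, adjusted p = 0.105), on the authors' TPM (adjusted p = 0.215 with a pseudocount of 1), and without cKO animals 4 and 5, where the estimate held at 0.37 with an adjusted p of 0.0608.

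Among the activators of the loop, Arntl (ENSMUSG00000055116, chr7:113207465-113314126, plus strand) had the same mean in both genotypes. In WT animals 1 to 5 Arntl was at 14.5, 15.6, 14.8, 12.9 and 22.4 CPM, and in cKO animals at 20.0, 14.9, 12.5, 13.4 and 19.5 CPM. Values overlapped throughout, with WT animal 5 and cKO animals 1 and 5 apart above the others. The log2 fold change of Arntl was 0.00 (SE 0.17, 95% interval -0.37 to 0.37, adjusted p = 0.997), so that differences within that interval remain compatible with these values. Its sign turned with several settings, among them library size alone, at -0.13.

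Clock (ENSMUSG00000029238, chr5:76209868-76304792, minus strand), the partner of BMAL1, whose transcript cycles weakly in most organs, ranged from 58.0 to 84.0 CPM in WT and from 75.7 to 82.7 CPM in cKO. The log2 fold change was 0.16 (SE 0.09, 95% interval -0.04 to 0.35, adjusted p = 0.205). Its spread between animals was 0.21 in WT and 0.05 in cKO (SD of log2 CPM), and WT animal 2 was lowest. By gene limits Clock overlaps the pseudogene Ube2n-ps1 on the same strand over 459 bases. Ube2n-ps1 had 819 to 1191 counts per library, and whether reads are shared was not examined.

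The PER and CRY repressors gave no call in either direction. Per2 (ENSMUSG00000055866, chr1:91415982-91459324, minus strand), an E-box target that also carries a glucocorticoid response element, was at 28.0, 28.5, 30.5, 52.2 and 41.9 CPM in WT animals 1 to 5 and at 26.6, 28.8, 26.1, 26.6 and 22.4 CPM in cKO animals. WT animals 4 and 5, which share an identifier stem, stood above all other animals, and the remaining WT values lay in or near the cKO range. The log2 fold change was -0.47 (SE 0.17, 95% interval -0.84 to -0.11, adjusted p = 0.0522).

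Cry1 (ENSMUSG00000020038, chr10:85131700-85185064, minus strand), the strong late repressor of the loop, had a similar set of values. WT animals were at 10.6, 12.6, 13.5, 23.6 and 15.9 CPM and cKO animals at 9.91, 13.0, 12.1, 9.08 and 9.35 CPM, with WT animal 4 again highest. The log2 fold change was -0.51 (SE 0.20, 95% interval -0.94 to -0.08, adjusted p = 0.0732). For these genes the call depended on the analysis. DESeq2 called both lower (adjusted p = 0.0250 for Per2 and 0.0432 for Cry1), and without WT animal 4 the log2 fold changes were -0.30 for each, with adjusted p of 0.102 and 0.162. With library size alone both passed too (adjusted p = 0.0173 and 0.0266).

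Per1 (ENSMUSG00000020893, chr11:69095217-69109960, plus strand), a repressor that also responds quickly to hormones and feeding, ranged from 23.7 to 36.0 CPM in WT and from 27.5 to 38.2 CPM in cKO. Its log2 fold change was 0.18 (SE 0.12, 95% interval -0.09 to 0.44, adjusted p = 0.297). Per3 (ENSMUSG00000028957, chr4:151003652-151044665, minus strand), which is dispensable for the loop itself, ranged from 9.75 to 16.9 CPM in WT and from 11.9 to 16.4 CPM in cKO, with a log2 fold change of 0.08 (SE 0.15, 95% interval -0.25 to 0.40, adjusted p = 0.721) that was negative, at -0.05, with library size alone. Cry2 (ENSMUSG00000068742, chr2:92403646-92434043, minus strand), the weaker cycling of the CRY repressors, ranged from 5.13 to 9.61 CPM in WT and from 7.68 to 9.90 CPM in cKO. Its log2 fold change was 0.27 (SE 0.15, 95% interval -0.05 to 0.60, adjusted p = 0.189), and without WT animal 4, which held the highest WT value, it passed (0.41, adjusted p = 0.0466). Values of all 3 genes overlapped between genotypes. By gene limits Per3 overlaps Camta1 on the same strand over 41014 bases, and Camta1 had 118 to 181 counts per library. Whether their exons overlap was not examined.

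**Figure D2:**
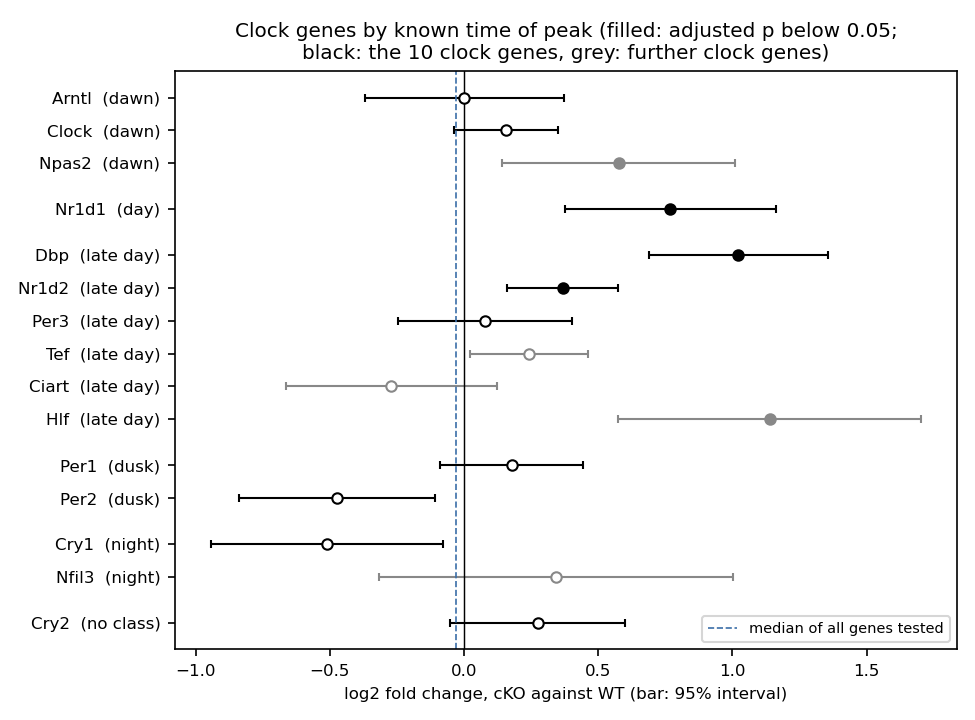
Log2 fold change of cKO against WT (horizontal axis, with bars for the 95% interval) for the 10 clock genes in black and 5 further clock genes in grey. Genes run from the earliest known time of peak at the top to the latest, and Cry2, given no class, is in the bottom row. Filled points passed the threshold, the dashed line is the median of all genes tested, and all filled points lie above 0, with Arntl at 0.00 and the estimates below 0 (Ciart, Per2 and Cry1) unfilled.

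Of the 14 genes set in the order of their known peaks, those that passed were Npas2, Nr1d1, Dbp, Nr1d2 and Hlf. All were higher in cKO and belong to dawn, day or late day, as do most of the 14 genes. Of all genes tested, 28.3% passed in either direction. The negative estimates did not pass here, but DESeq2 and the fit without WT animal 1 called Per2 and Cry1 lower. At dawn, Arntl was at 0.00 and Clock at 0.16, whereas Npas2, a paralog of Clock that pairs with BMAL1, was higher by 0.58 (adjusted p = 0.0493). In the day and late day, Nr1d1, Dbp, Nr1d2 and Hlf were higher, Tef was at 0.24 (adjusted p = 0.0939), Per3 at 0.08 and Ciart, a repressor of BMAL1 and CLOCK, at -0.27 (adjusted p = 0.285). At dusk the estimates were 0.18 for Per1 and -0.47 for Per2, and in the night they were -0.51 for Cry1 and 0.34 for Nfil3 (adjusted p = 0.420), the repressor that competes with DBP at D-boxes. Collection time was not recorded in the sources used here, and its part in these differences was not tested.

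Ratios of genes within a library do not depend on the scaling of libraries, and are given as descriptions. The log2 ratio of Dbp to Arntl ran from -0.53 to 0.67 in WT and from 0.78 to 1.87 in cKO animals, without overlap. For Nr1d1 to Arntl the WT range was 1.25 to 1.87 and the cKO range 1.87 to 2.96, so that WT animal 1 and cKO animal 1 all but met. The log2 ratio of Dbp to Per2 ran from -1.64 to -0.20 in WT and from 0.33 to 0.89 in cKO animals. This ratio was not planned, and it sets the member with the largest rise over one with a negative estimate. Its lack of overlap therefore adds nothing to those 2 differences. By contrast, Per2 to Arntl (0.87 to 2.01 in WT, 0.20 to 1.06 in cKO) and Cry1 to Arntl (-0.50 to 0.87 in WT, -1.06 to -0.05 in cKO) overlapped.

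**Figure D3:**
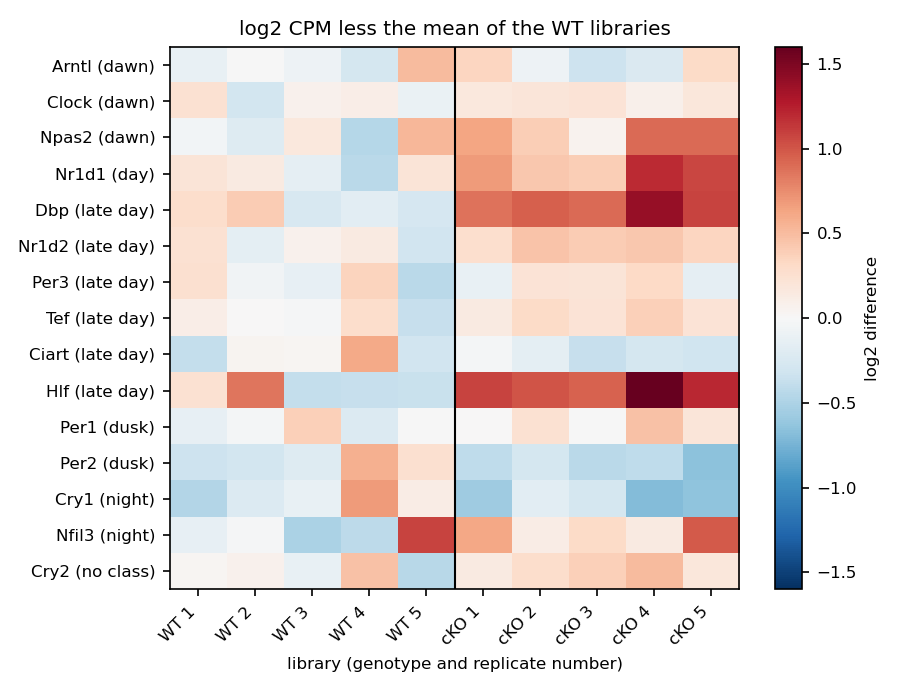
Log2 CPM of 15 clock genes less the mean of the WT libraries (colour scale, log2 units). Rows are genes with their known time of peak (Cry2 was given no class), and columns are libraries, WT to the left of the line. Dbp, Hlf and Nr1d1 are raised in all 5 cKO libraries and most in cKO animal 4, while Per2 and Cry1 are raised in WT animal 4 and Arntl in WT animal 5.

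Levels of the genes relative to each other were read from the authors' TPM, which is scaled by gene length. In WT crypts Nr1d2 (24.8 ± 5.79 TPM, n = 5), Nr1d1 (23.2 ± 3.31 TPM) and Dbp (18.8 ± 4.72 TPM) were the most abundant, and their ranges overlapped. Clock followed at 11.2 ± 2.50 TPM, then Per2, Per1, Arntl and Cry1 between 7.32 and 8.19 TPM with overlapping ranges, and Per3 (3.62 ± 0.70 TPM) and Cry2 (2.45 ± 0.76 TPM) were lowest. In cKO crypts Nr1d1 (37.0 ± 10.4 TPM) and Dbp (34.5 ± 6.33 TPM) stood above Nr1d2 (28.8 ± 1.83 TPM) by their means, while the ranges of both overlapped that of Nr1d2. Per2 was at 5.70 ± 0.20 TPM in cKO, below every WT library in TPM, whose lowest was 6.21 TPM. In CPM the genotypes overlapped, and limma on log2(TPM + 1) did not call Per2 (adjusted p = 0.0608). The median log2 fold change of all genes in that fit was -0.10. How many of all genes lacked overlap in TPM was not counted.

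The animals of 1 genotype also differed from each other. The SD of log2 CPM within a genotype, pooled over both, was 0.35 for Cry1, 0.32 for Nr1d1, 0.30 for Arntl and for Per2, 0.27 for Dbp and for Per3, 0.25 for Cry2, 0.21 for Per1, 0.16 for Nr1d2 and 0.15 for Clock. The median over all genes tested was 0.19, and Nr1d2 and Clock were the members below it. The other members lay between percentiles 57.6 (Per1) and 76.2 (Cry1) of all genes tested. Per2 varied more among WT animals (SD 0.40) than among cKO animals (SD 0.13), and so did Cry1 (0.44 against 0.23) and Nr1d2 (0.22 against 0.07). The other members did too, apart from Nr1d1 (0.28 against 0.36) and Arntl (0.30 against 0.31). These differences in spread were not tested or set beside those of all genes.

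Whether Arntl moved with or against the other clock genes from animal to animal was asked with log2 CPM centred on each genotype's mean. The test was exact permutation of animals within genotypes, over 10 animals and 9 genes (14400 orders, two-sided). Arntl ran opposite to Per3 (Pearson r = -0.89, exact permutation p = 0.00167, adjusted p = 0.0144; Spearman rho = -0.81, p = 0.0106, adjusted p = 0.0475) and to Cry2 (r = -0.83, exact permutation p = 0.00479, adjusted p = 0.0144; rho = -0.88, p = 0.00465, adjusted p = 0.0419). For Nr1d2 r was -0.74 (exact permutation p = 0.00472, adjusted p = 0.0144) and rho -0.67 (p = 0.0361, adjusted p = 0.108). The other 6 genes gave r between -0.30 and 0.42 and no adjusted p under 0.05, Dbp being at -0.28 and Nr1d1 at 0.42. Of the 11946 genes ranked against Arntl below, 0.0586% were as opposite to Arntl as Per3 and 0.385% as opposite as Cry2. For Nr1d2 the share was 1.92%, or 229 genes. For the other 6 genes, 19.4% to 44.2% of the 11946 genes lay as far out on the same side.

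Leaving out animals with extreme Arntl bore unequally on these relations. Without the 2 animals farthest from its median, WT animal 5 and cKO animal 1, r was -0.79 for Per3 (exact permutation p = 0.0208). It was -0.65 for Cry2 (exact permutation p = 0.0330) and -0.40 for Nr1d2 (exact permutation p = 0.139). Unlike those on all animals, the p-values of this paragraph were not adjusted over the 9 genes. They therefore do not show that any relation would pass by the measure used above. WT animal 5 and cKO animals 1 and 5 lay 0.31 to 0.50 above their genotype's mean of Arntl, and the other 7 animals at or below it. Within those 7 animals r was -0.61 for Per3 (exact permutation p = 0.153), -0.70 for Cry2 (exact permutation p = 0.118) and -0.38 for Nr1d2 (exact permutation p = 0.486). None passed with so few animals over a narrower range of Arntl, though r changed little for Cry2. WT animals 4 and 5, of 1 identifier stem, were the lowest and the highest WT animals in Arntl, and cKO animals 4 and 5, also of 1 stem, lay on opposite sides of their mean.

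**Figure D4:**
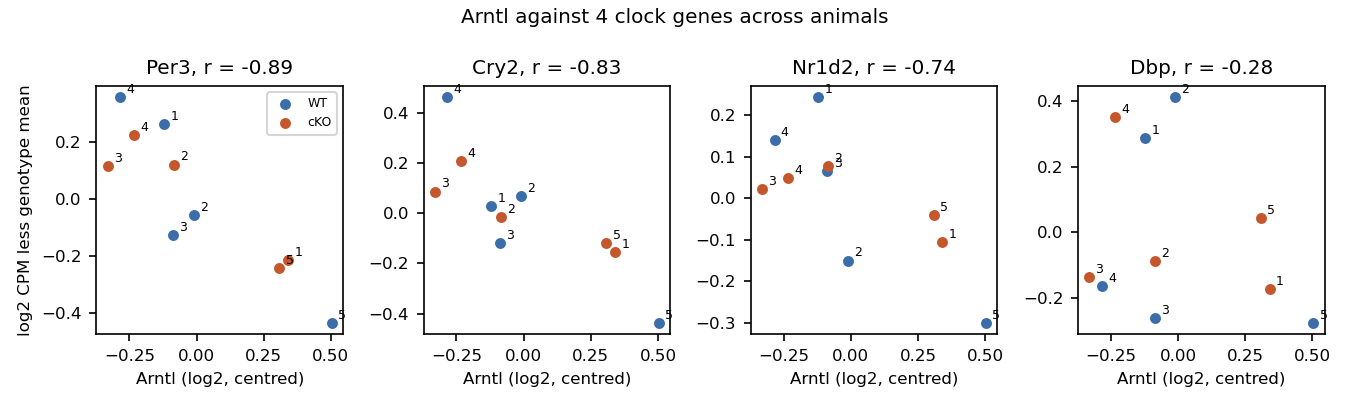
Arntl (horizontal axes) against Per3, Cry2, Nr1d2 and Dbp (vertical axes) in log2 CPM less the genotype mean; points are animals with their replicate number, blue WT and orange cKO. WT animal 5 and cKO animals 1 and 5 stand apart to the right, low in Per3 and Cry2, while Dbp (r = -0.28) shows no such order.

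Among 11946 genes tested whose mean reached 50 normalized counts, the genes that ran most nearly parallel to Arntl across the 10 centred animals were Frk (r = 0.96), Fbxo4 (0.95), Edem1 (0.94), Ifngr1 (0.93) and Psmd10 (0.92), and those most opposite were Ell3 (-0.96), Lig1 (-0.92), Gm17025 (-0.90), Slc25a25 (-0.90) and Pfkm (-0.90). None of these is a core clock gene, and Per3 ranked 11939 of the 11946 genes from most alike to most opposite. For Dbp the most alike were Hexdc (0.96), Hlf (0.96), Gpr155 (0.94), Wipf3 (0.93) and Ttc39c (0.93), Hlf being a relative of Dbp that binds the same D-boxes. The most opposite to Dbp were Rap1gds1 (-0.95), Atxn7l2 (-0.93), Frrs1 (-0.93), Helq (-0.92) and Sart3 (-0.92). With 10 animals and so many genes such values are descriptions only.

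Further genes were taken from 7 lists, written by hand with earlier results of these data known. The lists held clock components and cycling genes (5 lists) and hormone and stimulus responses that act on clock genes (2 lists). Of their 59 genes, 57 were tested. Of these, 20 were higher and 5 lower in cKO, beside the same 15.6% and 12.7% of all genes, and their median log2 fold change was 0.06. With library size alone the split was 10 higher and 15 lower, and over all genes 27.7% of those past the threshold were then higher in place of 55.1%, with the median of all genes at -0.16.

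In the activating arm 2 of 4 genes tested were higher, Npas2 among them. Npas2 went from 7.48 ± 1.99 CPM in WT to 11.1 ± 2.62 CPM in cKO, with overlap between the genotypes. Its call lay just under the threshold, and no gene of this arm was called with library size alone, without the filter on low counts or on TPM. Rora, at -0.04, and Arntl2, at -0.34, were below 1 CPM, and Rorb was not tested. In the repressing arm neither Ciart nor Bhlhe40 (-0.10, adjusted p = 0.342) passed, and Bhlhe41 was not tested.

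Among the relatives of Dbp, Hlf was the gene that passed. In WT animals 1 to 5 Hlf was at 7.03, 10.7, 4.55, 4.59 and 4.62 CPM, and in cKO animals at 12.5, 11.9, 11.4, 19.9 and 13.6 CPM. The genotypes did not overlap, WT animals 1 and 2 were the highest WT animals as for Dbp, and cKO animal 4 was the highest of all. Hlf rose 2.20-fold (log2 fold change 1.14, SE 0.26, 95% interval 0.57 to 1.70, adjusted p = 0.00886), and it did not pass without cKO animals 4 and 5, although cKO animals 1 to 3 also lay above every WT animal.

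Of 23 kinases, ubiquitin ligases and cofactors that act on clock proteins, 6 were higher and 3 lower, against 15.6% and 12.7% of all genes. The split turned to 2 higher and 8 lower with library size alone and to 1 and 4 on TPM, and it was 1 and 3 with the replicate block, 2 and 3 without the filter on low counts, and 1 and 2 without cKO animals 4 and 5. Among the ligase genes, Fbxl21, for an F-box protein that binds CRY proteins, was higher by 0.85 (adjusted p = 0.0145), from 0.89 ± 0.16 to 1.61 ± 0.32 CPM. Csnk1e, a casein kinase that phosphorylates PER proteins, was at 26.1 ± 3.49 CPM in WT and fell to 17.4 ± 0.88 CPM (-0.58 on the log2 scale, adjusted p = 0.00153), while its paralog Csnk1d was at -0.06 (adjusted p = 0.424). Csnk2a2 (-0.32) and Tipin (-0.42), the partner of Timeless at replication forks, were lower, and Csnk1a1 (0.22), Csnk2a1 (0.20), Gsk3a (0.22) and Fbxw11 (0.17) were higher.

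Of 10 genes known to cycle in many mouse organs, 5 were higher and 2 lower, against the same shares of all genes. With library size alone 4 were higher and 4 lower, on TPM 3 and 3, and without cKO animals 4 and 5 there were 3 higher. Por, the electron donor of cytochrome P450 enzymes, rose by 0.68, Tsc22d3 by 0.61, Coq10b by 0.45, and Nampt, which makes a NAD+ precursor, and Usp2, a deubiquitinase, by 0.44 each. Tspan4 (-0.85) and Dtx4 (-0.27) were lower, and Wee1, a mitotic kinase under E-box control, was at -0.10 (adjusted p = 0.425).

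Clock genes also answer to glucocorticoids and to acute stimuli, so genes of those responses were set beside them. Of 8 glucocorticoid-responsive genes 4 were higher (15.6% of all genes were) and none lower: Sgk1, a kinase that raises epithelial sodium transport, by 2.33 (adjusted p = 0.00226), Errfi1 by 0.83, Tsc22d3 by 0.61 and Klf9 by 0.22. Sgk1 was at 5.66 to 17.9 CPM in WT and at 40.4 to 46.0 CPM in cKO animals 1 to 3, with 85.3 and 84.4 CPM in cKO animals 4 and 5, the animals also highest in Nr1d1. Without these animals 2 of the 8 genes passed. Fkbp5, a glucocorticoid target as well, was at 0.04 (adjusted p = 0.934), and Per1, which carries a glucocorticoid response element, did not pass. Of 8 immediate early genes 3 were higher, Fos by 0.89, Junb by 0.47 and Btg2 by 0.44, and Egr1 was at -0.82 (adjusted p = 0.114). The split of this list was 1 higher and 2 lower with library size alone, on TPM 1 gene was lower and none higher, and Fos, Junb and Btg2 did not pass in edgeR without cKO animals 4 and 5. The part of hormones or handling in the clock genes' differences was not tested.

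The makeup of the crypt preparations moved with genotype too. All 7 enterocyte markers, the genes of absorption and digestion that rise toward the villus, were higher in cKO, and their summed level ran from 1149 to 5767 CPM in WT and from 7148 to 13648 CPM in cKO, highest in cKO animals 4 and 5. Within WT, animal 2 had the highest enterocyte sum and the highest Dbp and Hlf, and animal 4 had the lowest enterocyte sum, the lowest Nr1d1 and the highest Per2 and Cry1. Nr1d2 was not ordered in this way, with 67.4 CPM in WT animal 2 and 82.4 CPM in WT animal 4, and Dbp was lowest in WT animal 5. All 4 Paneth markers and 3 of 4 stem cell markers were lower, as was Pecam1 of the endothelium (-1.19, adjusted p = 0.00984), and 2 of 3 enteroendocrine and 2 of 3 tuft cell markers were higher. Of the 4 epithelial markers, 1 passed, Vil1, which was higher (0.80, adjusted p = 0.00182). Fibroblast markers (0 of 4 past the threshold; summed level 5.66 to 69.9 CPM in WT, 6.87 to 107 CPM in cKO) and immune markers (1 of 6, Jchain, lower; 57.9 to 114 CPM in WT, 30.1 to 75.3 CPM in cKO) were low beside the epithelial ones. In these bulk libraries a change in the share of a cell type cannot be told apart from a change of RNA per cell, and the part of cell makeup in the clock genes' differences was not tested.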

How the data were processed

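The authors ran the nf-core RNA-seq pipeline, with STAR for alignment and RSEM for expected counts per gene, on Ensembl's GRCm38 genes. Per library, the authors deposited unfiltered expected counts and TPM, which is scaled for gene length and library. RSEM splits reads that match several genes among them. Expected counts were rounded, and edgeR 4.0.16 was used in R 4.3.3: filterByExpr by genotype (minimum count 10, minimum total 15), TMM, and the robust quasi-likelihood test on all 14719 genes kept, with Benjamini-Hochberg adjustment. DESeq2, the tool of the study, was an alternative, fitted here by genotype without the study's time term, since all libraries are from 1 time. Genes without a symbol took 0.019% of counts. The largest library, at 31053622 counts, and the smallest, at 27050455, differ little in precision, and the clock genes had 141 to 3070 counts per library, so differences between animals exceed counting error for most. Animals are labelled as separate, 5 per genotype.

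Members and lists were chosen with earlier results of these data known. The genes named were Arid3a, the 10 members, genes of the hand-written lists, and for Arntl and Dbp the 5 most alike and the 5 most opposite genes. Some genes of the lists stay in the counts but are not reported here by name. Genes overlapping a member were named after the annotation was read. Correlations used log2 CPM with a prior count of 2 and Python 3.11.15 with SciPy 1.17.1. Scripts were tested on simulated data. Alternatives were DESeq2 1.42.0, limma-voom (limma 3.58.1), RLE factors or none, a filter dropped or raised to 10 counts per library, the replicate number as a block, limma on log2(TPM + 1) and log2(TPM + 0.1), a fold change above 1.5, and leaving out each animal. Leaving out cKO animals 4 and 5 together, and the 3 animals apart in Arntl, was chosen after seeing the data. Of the ratios, those of Dbp and of Nr1d1 to Arntl were planned, and the others were added to the plan.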

Additional observations from a re-analysis of the deposited data

Results flagged for a closer look

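Arntl in WT animal 5, at 22.4 CPM, stood apart from the other 4 WT animals, which lay between 12.9 and 15.6 CPM. The gap to the next animal was 0.713 of the range of the WT group, just over Dixon's critical value of 0.71 for 5 samples. It was the only such value among 20 groups tested (10 genes in 2 genotypes), and chance gives about 1 in 20. The same animal was lowest among WT in Per3 (9.75 CPM), Cry2 (5.13 CPM) and Nr1d2 (60.7 CPM), but not in Nr1d1 (53.0 CPM, the highest WT value).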

How the results depend on the processing

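Dbp kept its direction and its side of the threshold in all 20 alternatives, and Nr1d1 in 19 of 20, the exception being the analysis without cKO animals 4 and 5. The 3 clock genes past the threshold became 5 with DESeq2, 1 (Dbp) without cKO animals 4 and 5, and 3 to 5 when 1 animal was left out, with 5 without WT animal 1. With a fold above 1.5 there were 2. The 25 further genes became 15 with no filter on low counts and 15 on log2(TPM + 1) or log2(TPM + 0.1), of which 7 were higher and 8 lower. They became 8 without cKO animals 4 and 5 and 8 with a fold above 1.5, and 16 to 25 when 1 animal was left out, the lowest being without cKO animal 2. Of all genes, 4167 passed, against 1980 without cKO animals 4 and 5 and 1481 with a fold above 1.5. On TPM 33.8% of the genes called were higher. The log2 fold change of Arntl turned to -0.125 with library size only, -0.0889 on log2(TPM + 1), -0.101 on log2(TPM + 0.1), -0.0204 without cKO animals 4 and 5, and ran from -0.0886 to 0.165 when 1 animal was left out. That of Per3 turned to -0.0549, -0.0966 and -0.12 under the first 3. For lost calls with fewer animals the smaller number is part of the construction, and otherwise the cause was not tested. Replicate numbers did not pair the animals (correlations of deviations -0.201 to 0.0992). With the number as a replicate block 3 clock genes, 18 further genes and 3052 genes in all passed. The 5 animals per genotype left intervals of -0.37 to 0.37 for Arntl on the log2 scale, and expected counts without molecular identifiers carry more than counting error.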
